A study of Drosophila melanogaster with 6 samples.

Results

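Chromosome arm 3R of Drosophila melanogaster carried 607 of the 2609 deposited peaks of BEAF-32, or 23.3% of the list. Its peaks were the list entries whose sequence name is exactly chr3R, which keeps out the heterochromatic sequence 3RHet. The list came from wing imaginal discs, the larval sacs that form the adult wing and adjoining body wall, taken from larvae in the third instar of wild-type Oregon R (Orgon R in the labels). Chromatin immunoprecipitation followed by sequencing (ChIP-seq) was done in 4 libraries, using an antibody to BEAF-32B, an isoform of the protein. A further 2 libraries held input chromatin of the same tissue and strain.

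BEAF-32, the boundary element-associated factor, is an insulator protein. Insulators limit the reach of enhancers and mark borders between neighbouring chromatin domains. BEAF-32 recognises DNA through clustered copies of the word CGATA, and it is known for sites close to the promoters of housekeeping genes, often between genes that are transcribed away from each other. It was identified through its binding to scs', a boundary element beside a heat-shock gene locus of arm 3R. The same arm carries both Hox gene clusters of the fly, the Antennapedia complex and the bithorax complex. Gene positions on the build of the list were not used here, so none of these loci was placed among the peaks and no sequence is shown.

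The deposited list gives a start and an end for each peak and nothing else. It has no height, score or value per library. The sequencing depth is unknown, and the spread between the 4 ChIP libraries and the background in the 2 input libraries were not measured. Arms were therefore compared by intervals, not by a test. The 95% intervals below cover the counting of peaks, treat peaks as independent, and were not adjusted for the number of comparisons. Close peaks share a place on the arm, so these intervals are likely too narrow. Starts were taken as counted from 0, as is usual for this format but not stated in the file, and are printed 1 higher than deposited, so that a width includes both printed ends. Names such as 2LHet and Uextra in the list are used by Release 5 of the fly assembly. On 3R, low coordinates lie at the centromere and high coordinates at the telomere. On 2L, 3L and X, the comparison arms, the order is the reverse.

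The first peak of 3R from the centromere was chr3R:46208-47226, 1019 bp wide, and the last was chr3R:27811317-27811932, 616 bp wide. Together the 607 peaks covered 448 kb, or 1.61% of the 27.8 Mb that end with the last peak. That length, counted from coordinate 0, stands in for the arm length throughout. The part left out beyond the last peak lies at the telomere on 3R but at the centromere on 2L, 3L and X. Its size was not measured, so its effect on the comparisons is unknown. The density was 21.8 peaks per Mb (exact Poisson 95% interval 20.1 to 23.6) on 3R, against 16.7 per Mb on 2L, 21.7 on 3L and 26.0 on X. The ratio of 3R to 2L was 1.30 (exact 95% interval 1.15 to 1.49), and that of 3R to 3L was 1.01 (0.89 to 1.14). The ratio of 3R to X was 0.84 (0.75 to 0.94), but 0.96 (0.81 to 1.13) among peaks of 658 bp or more, the median width over the chromosome arms.

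The 3 equal blocks of 3R held similar numbers of peaks, while 5 equal blocks differed more. From the centromere, 3 equal blocks of the arm held 206, 205 and 196 peaks, or 22.2, 22.1 and 21.1 per Mb. The ratio of the telomere-end block to the centromere-end block was 0.95 (exact 95% interval 0.78 to 1.16). The median peak midpoint lay at 48.7% of the arm length, and the 75th percentile at 72.3%. On X the same ratio was 0.69 (0.56 to 0.86), on 2L 1.20 (0.94 to 1.54) and on 3L 1.12 (0.90 to 1.40). Of the 4 intervals, that of X lies below 1, and the interval of 3R overlaps each of the others. Other divisions put the interval of 3L above 1: 1.31 (1.10 to 1.57) with 2 equal blocks and 1.33 (1.02 to 1.74) with 5. In both, the interval of X stayed below 1, and those of 3R and 2L included 1. With 3R divided in 5 equal blocks, the counts from the centromere were 118, 128, 113, 148 and 100 peaks. The fullest block was the last but one, with 26.6 peaks per Mb (22.5 to 31.3), and the emptiest was that at the telomere, with 18.0 (14.6 to 21.9). These intervals do not overlap, although the pair was picked as the extremes of the 5. The fullest of the 5 blocks held 1.48 times the peaks of the emptiest on 3R, against 2.02 times on 2L, 1.58 times on 3L and 1.63 times on X.

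**Figure D1:**
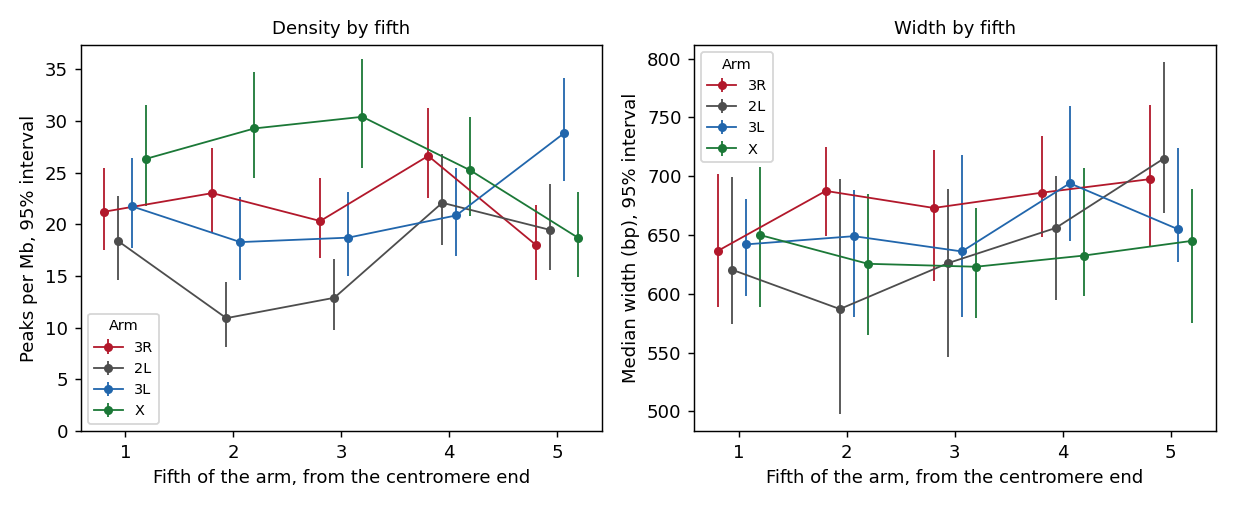
Peak density (left, peaks per Mb with exact Poisson 95% intervals) and median peak width (right, bp with exact order-statistic 95% intervals) in 5 equal blocks of arm 3R and of arms 2L, 3L and X, numbered from the centromere end. The 3R density stays between 18.0 and 26.6 peaks per Mb, and its median width lies between 636.5 and 697.5 bp.

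At the scale of 1 Mb the picture was uneven. The 27 full 1-Mb windows of 3R held 21.8 ± 8.68 peaks (SD over windows), with a median of 22 and a range of 6 to 34. The variance of these counts was 3.46 times their mean, where independent placement at even density gives a variance equal to the mean. The variance was 6.72 times the mean on 2L, 3.62 times on 3L and 2.97 times on X. The fullest windows of 3R were chr3R:12000001-13000000 and chr3R:19000001-20000000 with 34 peaks each, followed by chr3R:4000001-5000000 with 33. None of the 27 windows reached 35 peaks, while the highest counts on the other arms were 46 on 2L, 43 on 3L and 44 on X. The emptiest full windows were chr3R:13000001-14000000 with 6 peaks, chr3R:3000001-4000000 with 8 and chr3R:15000001-16000000 with 9.

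Full and empty windows of 3R could stand side by side. One of the fullest windows, chr3R:12000001-13000000, borders the emptiest, with 34 peaks in one and 6 in the other. The window with 8 peaks borders the one with 33. Over the 26 pairs of neighbouring windows, Pearson's r between their counts was -0.17, against 0.20 on 2L (21 pairs), 0.0034 on 3L (22 pairs) and 0.0018 on X (21 pairs). These are weak values from few windows, and each inner window enters 2 pairs. Up to 3 windows in a row lay on the same side of the mean. Above it were chr3R:19000001-22000000, with 86 peaks, and chr3R:10000001-13000000, with 84. Below it was chr3R:22000001-25000000, with 43 peaks, directly after the first of these.

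**Figure D2:**
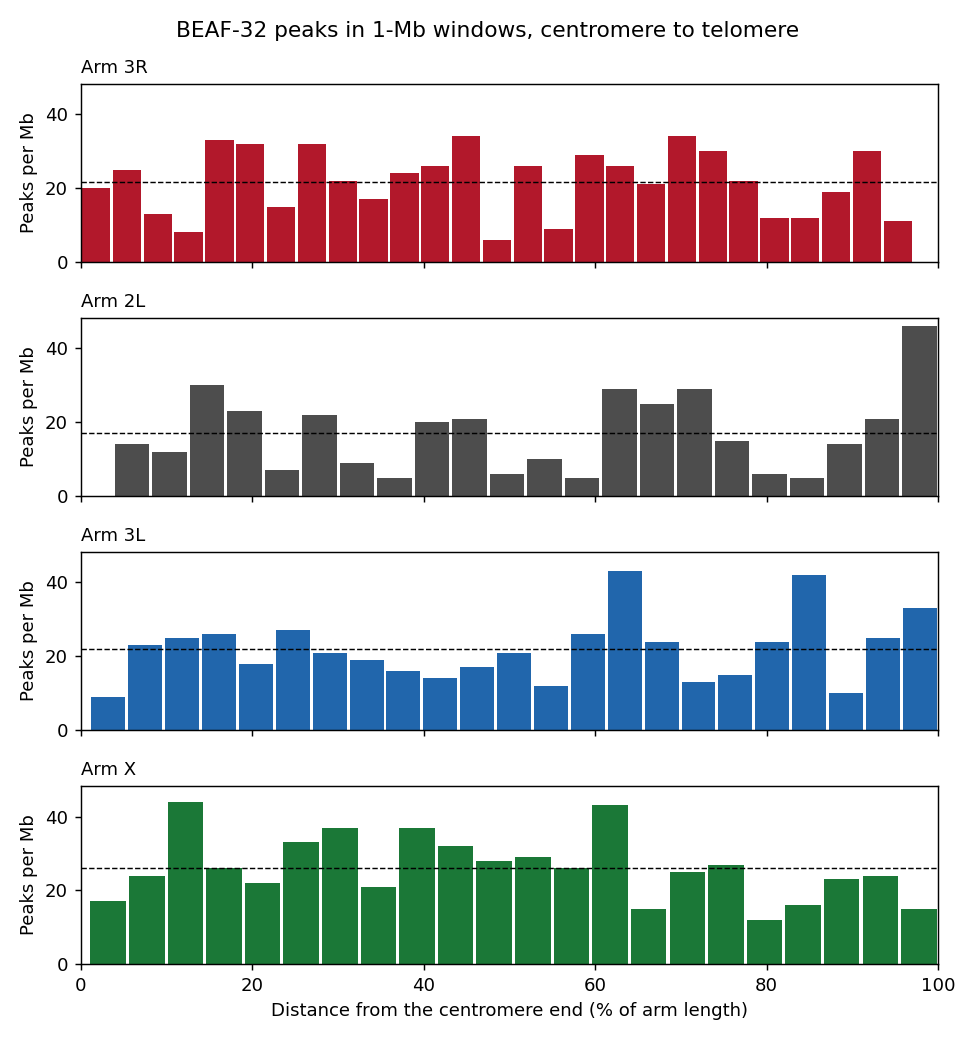
BEAF-32 peaks in full 1-Mb windows (vertical axis, peaks per Mb) of arms 3R, 2L, 3L and X from the centromere end (left) to the telomere end (right), in % of the arm length. The dashed line is the mean of the arm. Windows of 3R range from 6 to 34 peaks around a mean of 21.8 and rise and fall several times along the arm.

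The layout of 3R was that of islands of peaks between long empty stretches. Between neighbouring peaks, 91 stretches were longer than 100 kb from edge to edge. They added up to 16.9 Mb, or 60.7% of the arm, against 66.5% of 2L, 58.1% of 3L and 55.8% of X. Stretches over 300 kb numbered 8 on 3R and took 11.9% of the arm, against 22.1% of 2L, 18.4% of 3L and 15.7% of X. Over 300 kb, stretches therefore took a smaller share of 3R than of any of the comparison arms, a difference that was not tested. This order depends on the cut, which was not planned. Over 200 kb the shares were 28.6% on 3R, 36.6% on 2L, 28.9% on 3L and 31.0% on X. Over 500 kb they were 3.87%, 9.31%, 7.90% and 2.64% in the same order.

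The longest peak-free stretch of 3R was chr3R:12904184-13471018, 567 kb, which fills much of the emptiest window. The next were chr3R:3317487-3826974 with 509 kb, chr3R:14988402-15469698 with 481 kb and chr3R:26629589-27047052 with 417 kb. Then came chr3R:23781359-24151782 (370 kb), chr3R:18515857-18876632 (361 kb) and chr3R:6715327-7025799 (310 kb). The remaining 3 of the 10 longest were chr3R:17867751-18172497 (305 kb), chr3R:26292759-26591071 (298 kb) and chr3R:23089969-23384374 (294 kb). Of these 10, 5 lay in the telomere-end block of the 3 equal blocks, 3 in the middle and 2 in the centromere-end block. The 2 stretches near the telomere end at chr3R:26292759-26591071 and chr3R:26629589-27047052 were separated by 38.5 kb.

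The share of bordering peaks with a neighbour nearby depended on where the list of long stretches ended. Of the 16 peaks that border the 8 stretches over 300 kb, 14 (87.5%) had another peak within 20 kb on their other side. Distances were between midpoints. At the 12 stretches next in length, 8 of 24 borders had such a peak, which makes 22 of 40 (55%) over the 20 longest. A peak between 2 of these stretches was counted at each. Over all 3R peaks, 462 (76.1%) had another within 20 kb on either side. A border peak could have one on a single side only, so 76.1% is no matching base for these shares. The median distance from a 3R peak to the next along the arm was 17.5 kb. At the longest stretch, the peak on the centromere side was 1029 bp wide and the one on the telomere side 475 bp. Before the first peak, 46.2 kb from coordinate 0 held none.

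**Figure D3:**
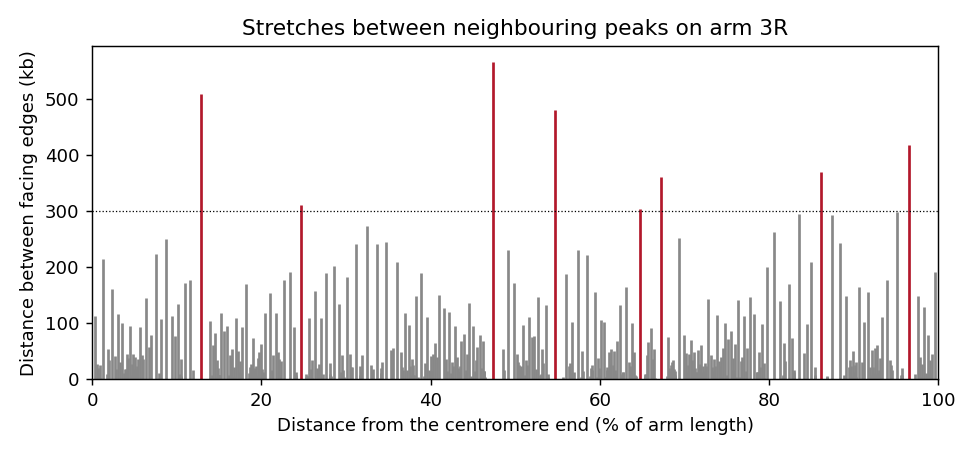
Length of each of the 606 stretches between neighbouring peaks of arm 3R (vertical axis, kb from edge to edge) at its place along the arm (horizontal axis, % of arm length from the centromere end). The 8 stretches above the dotted line at 300 kb, drawn in red, reach 567 kb and are scattered over the arm.

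When peaks were split into islands at every stretch over 100 kb, 3R had 92 islands. The median island held 4.5 peaks and 16 islands were single peaks. The islands together spanned 10.9 Mb, or 39.2% of the arm. The islands with 15 or more peaks numbered 10. They held 215 peaks, 35.4% of the arm's peaks, in 4.50 Mb, or 16.2% of its length. The fullest was chr3R:19426940-20183065, with 31 peaks in 756 kb, followed by chr3R:11798447-12330056 with 28 peaks in 532 kb. The island chr3R:5154564-5635300 held 27 peaks in 481 kb, and chr3R:1045168-1688346 held 22 in 643 kb. On the other arms, islands of 15 or more held 40.2% of the peaks of 2L, 39.9% of those of 3L and 45.8% of those of X. The share depends on where the minimum is set. With 20 or more peaks it was 17.8% on 3R, against 22.2% on 2L, 33.1% on 3L and 31.4% on X. With 19 or more, which adds 3 islands of 3R, it was 27.2% on 3R, against 27.2% on 2L, 33.1% on 3L and 34.7% on X.

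In windows of 100 kb, 78 of the 278 windows of 3R held no peak, 28.1% (Wilson 95% interval 23.1 to 33.6%), against 34.6% on 2L, 28.4% on 3L and 26.6% on X. At the other extreme, the fullest 53 windows, or 19.1%, held 50% of the peaks of 3R. The same share of peaks took 14.5% of the windows on 2L, 15.9% on 3L and 18.5% on X. The fullest 100-kb window was chr3R:7000001-7100000 with 13 peaks, and chr3R:4600001-4700000 and chr3R:12000001-12100000 held 12 each.

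Distances between neighbouring peak midpoints on 3R had a median of 17.5 kb (exact order-statistic 95% interval 14.8 to 20.3 kb) and a mean of 45.8 kb. The median was 24.4 kb on 2L, 16.7 kb on 3L and 11.6 kb on X. Of the 606 distances on 3R, 144 were 5 kb or shorter (23.8%) and took up 1.19% of the length, while 93 were over 100 kb (15.3%) and took up 61.7%.

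Peaks of 3R had close neighbours less often than those of X. Within 5 kb of 239 peaks of 3R lay another, 39.4% (Wilson 95% interval 35.6 to 43.3%), against 35.8% on 2L, 44.4% on 3L and 52.7% on X. The difference between 3R and X was -13.3 percentage points (Newcombe 95% interval -18.9 to -7.64). The difference was 3.60 points (-2.62 to 9.69) from 2L and -5.07 points (-10.9 to 0.75) from 3L, so both of these intervals include 0. At 2 kb, 20.3% of the 3R peaks had another, against 21.1% on 2L, 23.6% on 3L and 28.2% on X. The arms differ in density as well, with 21.8 peaks per Mb on 3R against 26.0 on X, and its part in these shares was not tested.

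At the far end of the scale, 145 peaks of 3R had none within 20 kb, 23.9% (Wilson 95% interval 20.7 to 27.4%), against 34.5% on 2L, 26.8% on 3L and 18.0% on X. The 3R share was 10.6 points below that of 2L (difference -10.6, Newcombe 95% interval -16.4 to -4.78) and 5.86 points above that of X (1.22 to 10.5). Peaks with none within 50 kb numbered 41 on 3R, 6.75%, against 14.4% on 2L, 10.9% on 3L and 6.41% on X. At that distance 3R differed from 2L by -7.61 points (-11.8 to -3.71) and from 3L by -4.16 points (-7.65 to -0.82). From X it differed by 0.34 points (-2.54 to 3.20). Intermediate distances, singled out after the values were seen, were more frequent on 3R: 223 of its peaks had their nearest neighbour 5 to 20 kb away, 36.7% (Wilson 95% interval 33.0 to 40.6%), against 29.8% on 2L, 28.8% on 3L and 29.3% on X. The difference was 6.97 points (Newcombe 95% interval 0.92 to 12.8) from 2L, 7.97 points (2.42 to 13.4) from 3L and 7.45 points (2.09 to 12.7) from X. A class chosen by its values gives no independent support for such a difference.

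The 5 most isolated peaks of 3R had their nearer neighbour 172 to 245 kb away. The first was chr3R:24460554-24461231, 678 bp wide, with 245 kb to its nearer neighbour, and the next was chr3R:22286884-22287474, 591 bp wide, with 200.5 kb. The last peak of the arm, which has a neighbour on 1 side, followed at 191 kb. The others were chr3R:6394435-6395000 (566 bp wide, 177 kb) and chr3R:3122532-3123046 (515 bp wide, 172 kb). All 5 were at or below the 3R median width of 679 bp.

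With neighbours linked at up to 5 kb between midpoints, 368 peaks of 3R stood alone. There were 69 runs of 2, 16 runs of 3 and 10 runs of 4 or more. Runs of 3 or more held 16.6% of the peaks of 3R, against 17.5% on 2L, 23.4% on 3L and 29.5% on X. The difference was -6.77 points (Newcombe 95% interval -11.5 to -2.06) from 3L and -12.8 points (-17.6 to -8.05) from X. From 2L it was -0.85 points (-5.81 to 3.85). A run enters these shares with all its peaks, so the intervals understate the error here.

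The 10 runs of 4 or more held 53 peaks and spanned 7.47 to 22.8 kb each, 112 kb in all, or 0.40% of the arm. Of these runs, 4 lay in the centromere-end block, 4 in the middle and 2 in the telomere-end block. The count depends on the linking distance: 2 such runs remained at up to 3 kb and 27 were found at up to 10 kb. After peaks within 500 bp of each other were merged, there were 6.

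The largest run, chr3R:4627117-4649944, held 11 peaks in 22.8 kb, with a median distance of 2.04 kb between midpoints. Its first peak, chr3R:4627117-4628590, was 1474 bp wide, and its sixth, chr3R:4636925-4637948, was 1024 bp wide. Of its 11 peaks, 5 were narrower than 500 bp, against 20.3% of all 3R peaks, and its median width was 576 bp. The narrowest, chr3R:4642310-4642641, measured 332 bp and is among the 5 narrowest of the whole arm. Peaks covered 31.7% of the run.

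The next run by number, chr3R:7035800-7050095, held 7 peaks in 14.3 kb. Its peaks were more alike in width, from 666 to 960 bp. Another run of 4, chr3R:7054989-7063246, began 4.89 kb after its end, so that 11 peaks lay within 27.4 kb. This pair of runs lies in the fullest 100-kb window and starts 10.0 kb beyond the end of the 310-kb empty stretch. The run chr3R:12060058-12070704 held 6 peaks in 10.6 kb with 45.4% of its length covered. The run chr3R:24972868-24981915 held 5 peaks in 9.05 kb with 51.4% covered and a median width of 911 bp.

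**Figure D4:**
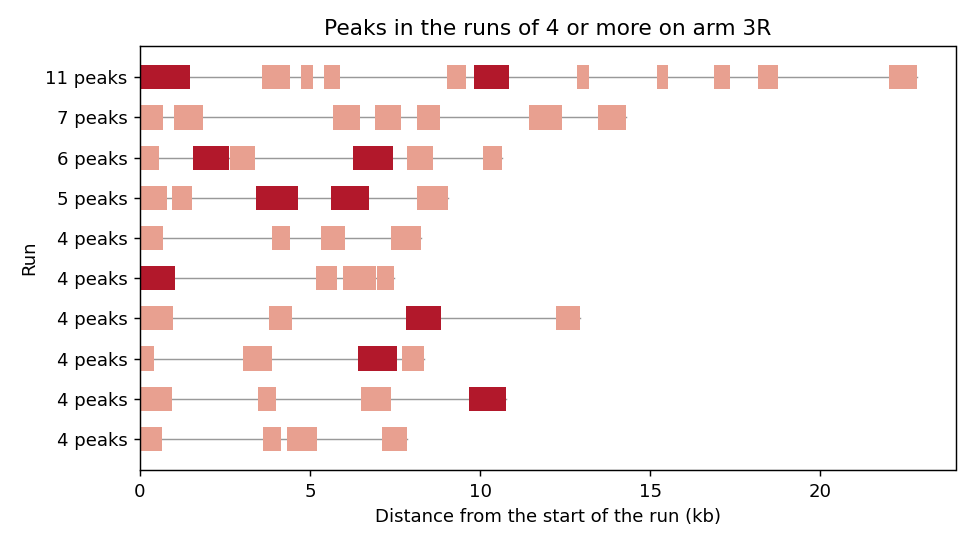
Peaks (boxes, to scale) in the 10 runs of 4 or more peaks on arm 3R, by distance from the start of each run in kb. Dark boxes are peaks wider than 1000 bp. The run of 11 peaks spans 22.8 kb and the others between 7.47 and 14.3 kb.

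Some neighbours on 3R nearly touched. In 47 neighbouring pairs, 7.76% of all, the facing edges were 500 bp or less apart, and in 10 pairs 100 bp or less. The closest pair was chr3R:8844090-8845067 and chr3R:8845089-8845591, with 21 bp between them. It was followed by chr3R:5455516-5456203 and chr3R:5456237-5457079 with 33 bp, and by chr3R:12061622-12062670 and chr3R:12062712-12063433, within the run of 6, with 41 bp. Next came chr3R:27551124-27551726 and chr3R:27551801-27552421 with 74 bp, and chr3R:17458260-17459071 and chr3R:17459150-17459868 with 78 bp. Each of these 5 pairs measured 1298 to 1812 bp from the outer edge of one peak to that of the other. Whether such a pair is 1 site split by the peak caller was not tested.

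Peak width on 3R had a median of 679 bp (exact order-statistic 95% interval 653 to 698 bp), quartiles of 542.5 and 865.5 bp, and extremes of 310 and 2390 bp. The median was 653 bp on 2L (620 to 683), 654 bp on 3L (636 to 675) and 630 bp on X (608 to 661). The 3R median was the highest of these 4 arms, by 25 to 49 bp, and its interval overlaps that of each other arm. Peaks wider than 1000 bp made up 16.5% of 3R (100 peaks, Wilson 95% interval 13.7 to 19.6%), against 13.3% on 2L, 15.3% on 3L and 12.5% on X. The Newcombe intervals of all 3 differences include 0.

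The share of peaks wider than 1000 bp differed more between 3R and each other arm among lone peaks. Over all peaks the differences were 3.16 points from 2L, 1.20 from 3L and 4.00 from X. The change was not tested, and the lone-peak contrast with 2L was singled out after the values were seen. Of the 368 peaks of 3R with no other within 5 kb, 59 were wider than 1000 bp, 16.0% (Wilson 95% interval 12.6 to 20.1%), against 8.94% on 2L, 12.5% on 3L and 11.0% on X. The difference from 2L was 7.09 points (Newcombe 95% interval 1.67 to 12.1), while the intervals from 3L (3.53 points, -2.02 to 8.84) and X (5.04 points, -0.41 to 10.2) include 0. Among peaks with another within 5 kb, 17.2% of those on 3R were wider than 1000 bp, against 21.2% on 2L, 18.8% on 3L and 13.8% on X. Both 3R shares, 17.2% with a close neighbour and 16.0% without, have overlapping intervals.

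Grouped by distance to the nearest peak, a grouping chosen after the values were seen, 3R peaks had their highest median width at 2 to 5 kb. Peaks with the nearest midpoint within 1 kb had a median of 616 bp (61 peaks), a value that the short distance itself limits, since peaks do not overlap. The median was 720 bp at 1 to 2 kb (62 peaks) and 743 bp (95% interval 698 to 826 bp) at 2 to 5 kb (116 peaks). It was 697 bp at 5 to 10 kb, 684 bp at 10 to 20 kb and 653.5 bp at 20 to 50 kb. The 41 peaks with none within 50 kb had a median of 566 bp (488 to 613 bp), an interval wholly below that of the arm. Of these 41, 3 were wider than 1000 bp (7.32%, Wilson 95% interval 2.52 to 19.4%), against 25% (18.0 to 33.6%) at 2 to 5 kb. The median of peaks with none within 50 kb was 612 bp on 2L, 592 bp on 3L and 599 bp on X. Over all 607 peaks, Spearman's rho between width and distance to the nearest peak was -0.075.

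**Figure D5:**
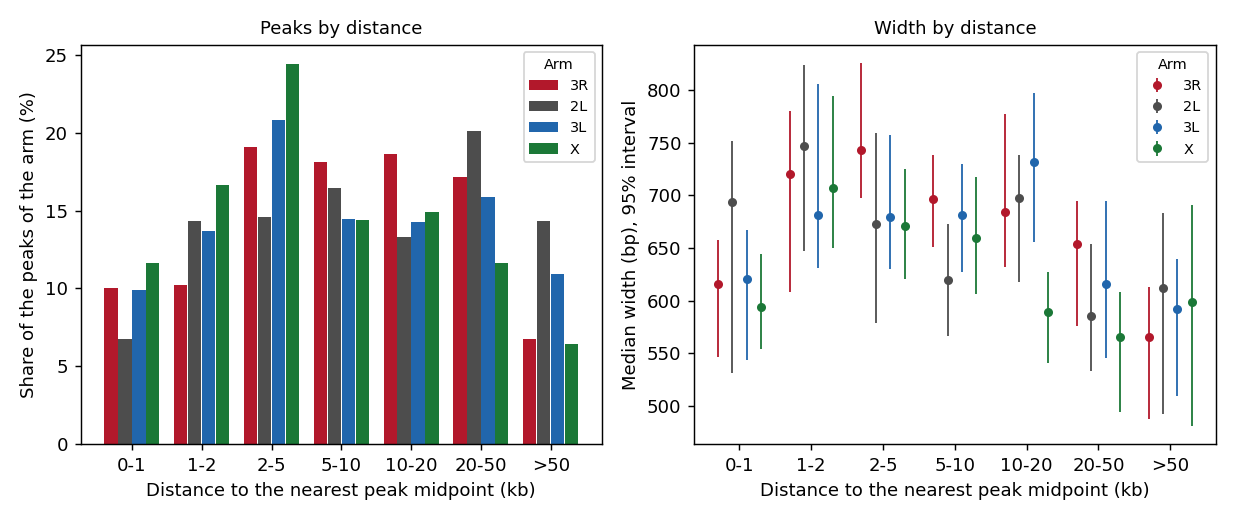
Left, share of the peaks of each arm (%) by distance to the nearest peak midpoint (kb). Right, median width (bp) in the same classes with exact order-statistic 95% intervals, for arms 3R, 2L, 3L and X. On 3R the median width is 743 bp at 2 to 5 kb and 566 bp beyond 50 kb.

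Along 3R, median width was lowest in the block at the centromere and highest in that at the telomere. In the 5 equal blocks from the centromere the median was 636.5, 687.5, 673, 686 and 697.5 bp. The 95% intervals of all 5 overlap, which does not show that width is even along the arm. The share wider than 1000 bp was 13.6%, 14.8%, 21.2%, 16.9% and 16.0% in the same order. In the same order the medians were 620.5, 587, 626, 656 and 715 bp on 2L. They were 642, 649, 636, 694 and 655 bp on 3L, and 650, 625.5, 623, 632.5 and 645 bp on X. Over the 27 full windows of 3R, Pearson's r between the number of peaks and their median width was 0.29, and Spearman's rho was 0.14.

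The widest peak of 3R was chr3R:19880929-19883318 with 2390 bp, a member of a run of 3 within the fullest island. It was followed by chr3R:21880317-21882408 (2092 bp), chr3R:9207665-9209753 (2089 bp), chr3R:5226071-5228100 (2030 bp) and chr3R:11098948-11100847 (1900 bp). The other 5 of the 10 widest were chr3R:18876633-18878387 (1755 bp), chr3R:1057252-1058928 (1677 bp), chr3R:18886066-18887739 (1674 bp), chr3R:19151341-19152962 (1622 bp) and chr3R:17122189-17123805 (1617 bp). Of these 10, 7 had no other peak within 5 kb, a share close to the 60.6% of all 3R peaks. Another grouping, noticed after the values were seen, was that 3 of the 10 lay in 1 island of 19 peaks, chr3R:18876633-19174071. The first peak of that island, 1755 bp wide, closes the 361-kb empty stretch.

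The narrowest peaks of 3R were chr3R:25835369-25835678 with 310 bp and chr3R:6715007-6715326 with 320 bp, followed by the peak of 332 bp in the largest run. Next were chr3R:27056909-27057241 with 333 bp and chr3R:7599356-7599690 with 335 bp. Of these 5, 4 stood alone at 5 kb, as did 60.6% of all 3R peaks. The peak of 320 bp is the last before the 310-kb stretch without a peak.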

How the data were processed

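The authors deposited a single peak list without header, whose 3 columns hold sequence name, start and end in bp. No other value is given per peak or per library. Bowtie 0.12.5 is named in the tools per the submitters' processing notes. How peaks were called, with which threshold, whether against input or on pooled libraries, and on which build, is not given in the sources used here. Sequence names are those of Release 5. The gene table at hand is of Release 6 and was not joined to the peaks, so the planned annotation and sequence counts were not run.

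Per the labels' protocols, 200 discs were fixed with 1% formaldehyde for 10 min, chromatin was sonicated to 200 to 500 bp and libraries were size-selected at 200 to 300 bp.

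Width was the deposited end minus the deposited start. Distances were taken between midpoints unless stated, and windows were assigned by midpoint. Intervals were exact Poisson, conditional exact, Wilson, Newcombe and order-statistic intervals at 95%, computed with Python 3.11.15, NumPy 2.4.6 and SciPy 1.17.1. The counting of runs, near neighbours, merged peaks and windows was tested on a planted layout. The intervals were tested on independent simulated draws, which does not cover peaks that cluster. The regions named were the ends, the 10 widest and 5 narrowest peaks, the 10 longest empty stretches, the runs of 5 or more, the 5 closest pairs, the 5 most isolated peaks and the extreme windows. Islands, 100-kb extremes, the run of 4 named beside the run of 7 and widths by distance were added after seeing the data. So were the differences between arms in peaks with none within 20 or 50 kb and in runs of 3 or more. The difference from 2L in lone peaks wider than 1000 bp was also made a result of its own at that point. The count of runs of 4 or more was planned. The members and lists were chosen with earlier results of these data known.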

Additional observations from a re-analysis of the deposited data

How the results depend on the processing

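Of 85 alternative values for 30 results, 70 stayed within the 95% interval of the reported value or, for results with no interval, within 1.5 times of it. Some of these could not move, as merging of peaks within 500 bp leaves the longest stretch as it was. A difference whose interval includes 0 could also change sign and still be counted among them. The difference from X in peaks with another within 5 kb kept its sign under each alternative. The difference from 2L went from 3.60 points to -0.44 points (-8.81 to 7.58) among peaks of 658 bp or more. Both of its intervals include 0. A further 7 differences kept their sign under 20 alternatives. Both these differences and their alternatives were chosen after seeing the data. Each of the 7 had a main interval that excludes 0, so a kept sign adds little support. Of the 20 alternatives, 2 had an interval that includes 0, both among peaks of 658 bp or more. They were none within 20 kb against 2L (-7.65 points, -16.4 to 1.15) and none within 50 kb against 3L (-4.00 points, -10.5 to 2.28). Merging of peaks within 500 bp (560 peaks on 3R) gave 29.5% of 3R peaks with another within 5 kb, 27.5% with none within 20 kb, 6 runs of 4 or more, a median width of 699 bp and 23.6% wider than 1000 bp. Among peaks of 658 bp or more (322 on 3R), the density was 11.6 per Mb, 45.0% of 100-kb windows were empty, 29.5% had another within 5 kb, 37.3% had none within 20 kb, and the density ratio of 3R to X was 0.96. Distances between edges gave 43.7% with another within 5 kb. Empty windows made up 50% at 50 kb and 8.63% at 200 kb. Runs of 4 or more numbered 2 with links up to 3 kb and 27 with links up to 10 kb. After merging, the difference from 3L in peaks with another within 5 kb was -6.03 points (-11.8 to -0.28), an interval that excludes 0. Among peaks with none within 5 kb the median width of 3R was 66 bp above that of X, with bounds of 11 to 126 bp formed from the intervals of both medians, against 49 bp (-8 to 90 bp) over all peaks. No replicate could be left out, and no paired analysis was possible because the list has no value per library.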

Other observations

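The sequence 3RHet, mapped heterochromatin of the same chromosome arm, held 2 peaks that enter none of the comparisons above. They lay at 612583-613281 (699 bp) and 672888-673441 (554 bp) of that sequence.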
